A study of Mus musculus with 16 samples.

Results

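The genes described here are 10 genes of insulin signalling and its FOXO branch, picked by their symbols: the receptors Insr and Igf1r, the docking proteins Irs1 and Irs2, the phosphoinositide 3-kinase subunit gene Pik3r1, the kinase gene Akt2, the transcription factor genes Foxo1 and Foxo3, and the downstream genes Slc2a4 and Sesn3. They are 10 of the 20295 genes of the count table. The choice was made with earlier results of these data known. The shares of the 10 genes called, set beside those of all genes below, are therefore descriptions only. All 10 passed the filter on low counts, as did 12786 genes in all, and their counts lay between 147 (Sesn3) and 10622 (Irs2) in a sample. Insr, Irs1, Irs2, Pik3r1 and Foxo1 each overlap 1 annotated gene on the opposite strand, judged on whole gene spans and not on exons. Since it is not stated that counting used the strand, reads from a shared counted stretch could not be told apart. The values of these 5 genes are uncertain in that respect, and whether exons are shared was not tested.

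The experiment asked how acute lipolysis changes gene expression in brown adipocytes, and whether the released fatty acids must first be activated or oxidised. Cells of the BAT-LgT line, mouse brown preadipocytes made immortal with SV40 large T antigen, were used on day 7 of differentiation, and mRNA was measured by RNA-seq. The cells come from a single line, without the other cells, nerves and circulating hormones of brown fat. All 6 groups had been differentiated with dexamethasone, 3-isobutyl-1-methylxanthine, T3 and 20 nM insulin, and none of these was added from day 4 on. The cells received vehicle, 5 µM triacsin C or 50 µM etomoxir for 1 h and then stayed for 3 h with or without SR-3420. SR-3420 binds ABHD5, a co-activator of the lipase ATGL, and so starts lipolysis directly. Its dose is 10 µM in the labels, and the published study states another dose. Triacsin C inhibits the long-chain acyl-CoA synthetases, which activate fatty acids, and etomoxir inhibits CPT1, through which fatty acids enter mitochondria.

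There were 2 samples of vehicle (replicates 2 and 3), 2 of SR-3420 (replicates 1 and 3), and 3 in each of the 4 groups that received an inhibitor, triacsin C or etomoxir, either alone or followed by SR-3420. The study's methods call the replicates independent experiments, so the p-values below measure differences against the spread between such samples of 1 cell line. Total counts were 14032494 and 10097582 in the vehicle samples and 19156037 and 15667121 with SR-3420. They were 9452861, 15818919 and 13164376 with triacsin C and 16265789, 12043744 and 10659704 with triacsin C and SR-3420. With etomoxir they were 14993463, 11813662 and 10993504, and with etomoxir and SR-3420 25670624, 13173278 and 16512525. Values per sample are given below in the order of the replicate numbers.

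Insulin and IGF1 bind receptor tyrosine kinases that phosphorylate IRS docking proteins, and these recruit phosphoinositide 3-kinase, which in turn leads to activation of AKT. AKT moves the glucose transporter GLUT4 to the cell surface, restrains lipolysis and keeps FOXO factors out of the nucleus. FOXO factors that stay in the nucleus drive genes of fasting metabolism and stress resistance, and in adipocytes the pathway is known for glucose uptake and lipid storage.

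The labels name the cells brown adipocytes. The 8 adipocyte markers were abundant in every sample, with Fabp4 the highest (mean normalized count 80493) and Adipoq at 28488. Of the 9 brown adipocyte markers, 8 passed the filter. Cox8b was the highest at a mean of 1172 normalized counts, Ppargc1a reached 630 and Cidea 257. Ucp1, the defining thermogenic gene, was low at 29.8, and Dio2 had a count of 0 in 12 of the 16 samples. The adipocyte identity of the label is borne by its markers, while the thermogenic markers Ucp1 and Dio2 were low. Preadipocyte or fibroblast markers were present as well, with means from 44.05 (Cd34) to 27323 (Col1a1). Pdgfrb was at 4079, against 2585 for the adipocyte marker Pparg. The share of undifferentiated cells was not tested.

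Insr encodes the insulin receptor (RefSeq NM_010568; mm9 chromosome 8 from 3150922 to 3279617, minus strand, 21 exons in the annotation). Normalized counts of Insr were 4113 and 4198 in the vehicle samples, 3472 and 2779 with SR-3420, 1166, 1188 and 1101 with triacsin C, 1506, 1433 and 1272 with triacsin C and SR-3420, 4026.5, 3768 and 4286 with etomoxir, and 2459, 1819 and 2876 with etomoxir and SR-3420. All 6 samples with triacsin C lay below all 10 without it. The spread within vehicle was small, with a mean of 4156 ± 60.5 (SD, n = 2), against 1152 ± 45.0 (SD, n = 3) with triacsin C. With triacsin C alone Insr fell by 1.83 on the log2 scale (standard error, SE, 0.161, adjusted p = 1.09e-05), to 0.282 times the vehicle level, with a 95% interval of the log2 fold change from -2.17 to -1.48. Its highest and lowest group means, of vehicle and triacsin C, lay further apart on the log2 scale than those of the other 9 genes.

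The log2 values of Insr for SR-3420 had opposite signs with the inhibitors. With etomoxir it fell by 0.75 (SE 0.146, adjusted p = 0.00236). With triacsin C, where it started low, the log2 fold change (log2FC) was 0.26 (SE 0.146, adjusted p = 0.176), although the 3 samples with SR-3420 were all higher than the 3 without it. Without an inhibitor the log2FC was -0.40 (SE 0.178, adjusted p = 0.213), with both SR-3420 samples below both vehicle samples. The test of the difference itself is given with the response differences below. In bulk RNA, fewer adipocytes among the cells and less of an mRNA per adipocyte cannot be told apart. With triacsin C alone, where Insr was lowest, the summed counts of 8 adipocyte markers were 290455, 312518 and 301134, against 306759 and 285848 in vehicle. Without Fabp4, the most abundant, they were 174117, 202230 and 174677, against 217807 and 184146. Of the 8, Pparg alone was called in that comparison, where it fell by 1.48 (SE 0.189, adjusted p = 1.82e-04). With etomoxir, where Insr fell with SR-3420, the sums were 294702, 275471 and 320520 without SR-3420. They were 171763, 118050 and 209403 with it, and 6 of the 8 markers were called lower. The part of this in the fall of Insr was not tested.

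Igf1r encodes the receptor for IGF1 (RefSeq NM_010513; mm9 chromosome 7 from 75097143 to 75378553, plus strand, 21 exons). Normalized counts of Igf1r were 1194 and 1048 in vehicle, 1174 and 983 with SR-3420, 642, 535 and 528 with triacsin C, 1023, 986 and 818 with triacsin C and SR-3420, 1137.5, 951 and 937 with etomoxir, and 1225, 1133.5 and 913 with etomoxir and SR-3420. The 3 samples with triacsin C alone were the lowest, and adding SR-3420 to triacsin C brought the counts to between 818 and 1023. Igf1r fell by 0.96 with triacsin C alone (SE 0.165, adjusted p = 0.00178). With triacsin C present it rose by 0.71 with SR-3420 (SE 0.15, adjusted p = 0.00249), the 1 rise among the 10 genes. The log2FC for SR-3420 was -0.04 without an inhibitor (adjusted p = 0.927) and 0.12 with etomoxir (adjusted p = 0.612).

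**Figure D1:**
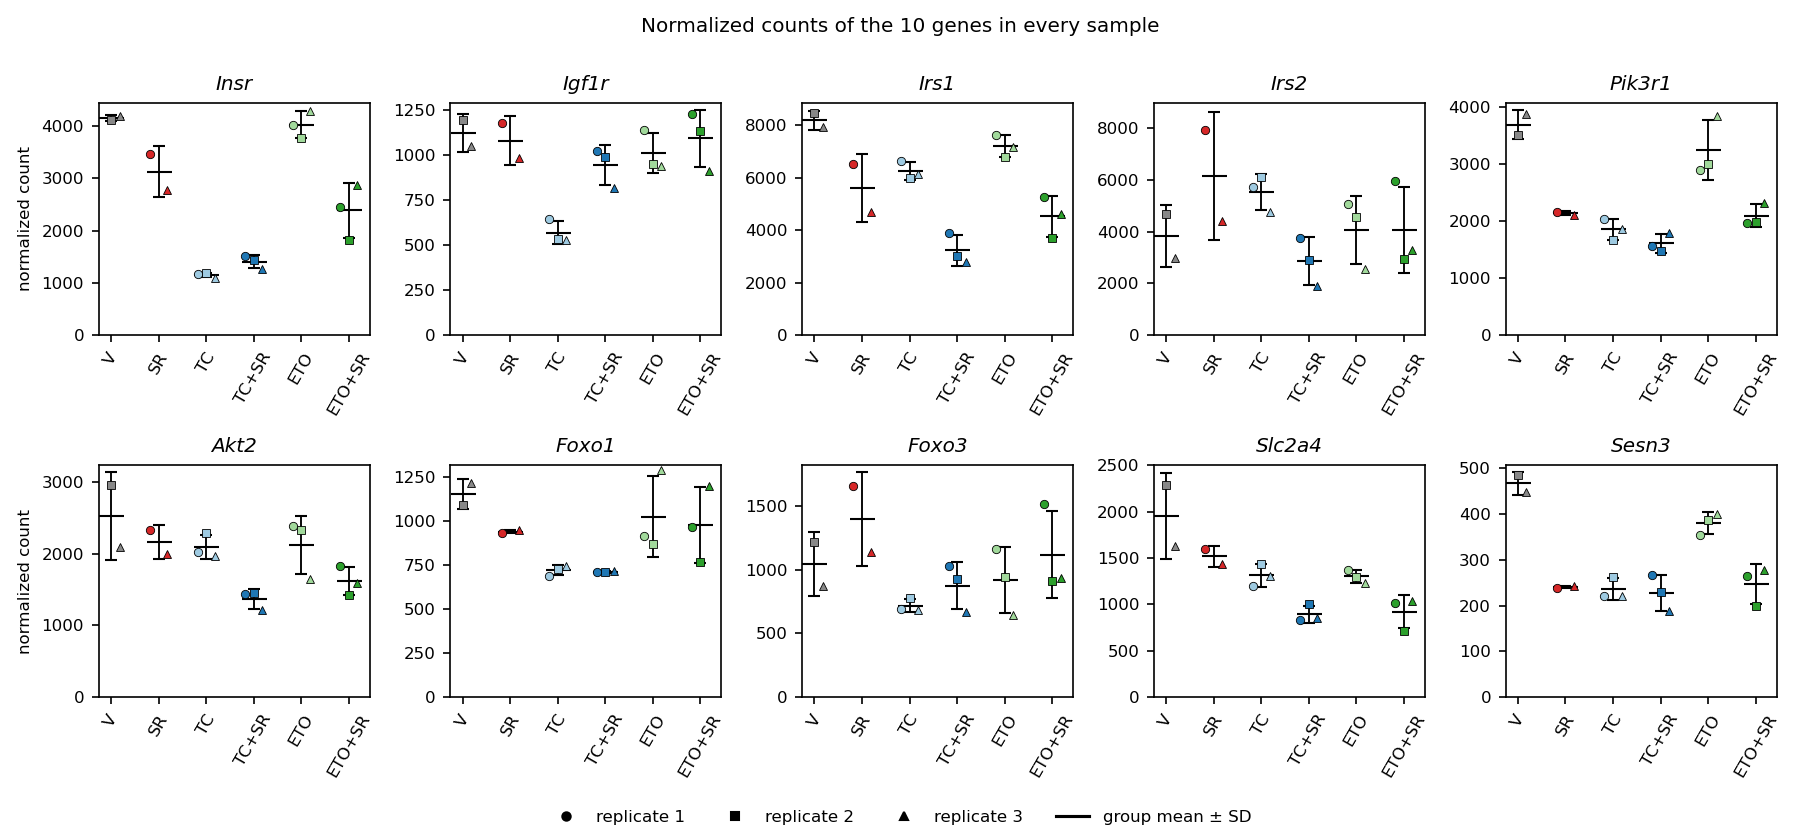
Normalized counts (y axis, from 0) of the 10 genes in the 6 groups (x axis; V vehicle, SR SR-3420, TC triacsin C, ETO etomoxir); points are samples, their shapes the replicate numbers, and bars the group mean with its SD. The Insr counts with triacsin C lie between 1101 and 1506, and those without it between 1819 and 4286.

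Irs1 and Irs2 encode the docking proteins that carry the signal from the receptor to phosphoinositide 3-kinase. Irs1 (RefSeq NM_010570) spans 82229680 to 82288014 of mm9 chromosome 1 (minus strand, 2 exons), and Irs2 (NM_001081212) spans 10986964 to 11008430 of chromosome 8 (minus strand, 2 exons). Their promoters are shown beside that of Igf1r because, with triacsin C present, SR-3420 lowered Irs1 and Irs2 and raised Igf1r. It also lowered Akt2 and Slc2a4 there, whose promoters are not printed, so this reason does not single out the printed genes. The Irs2 call in that comparison did not hold when single samples were left out, as given below. The sequences are those of RefSeq on GRCm38.p6, from 250 bases before the start site to 50 after it, 5′ to 3′ on the gene's strand. Irs1 is at chr1:82291390-82291689 (minus strand, GC content 71.3%), Irs2 at chr8:11008880-11009179 (minus strand, 72.0%) and Igf1r at chr7:67952007-67952306 (plus strand, 76.0%), against a median GC content of 52.7% over all promoters of the table. Capitals mark matches to CAAAACA, a core of the insulin response sequence that FOXO factors are known to bind, read as TGTTTTG on the strand shown.
Irs1 promoter: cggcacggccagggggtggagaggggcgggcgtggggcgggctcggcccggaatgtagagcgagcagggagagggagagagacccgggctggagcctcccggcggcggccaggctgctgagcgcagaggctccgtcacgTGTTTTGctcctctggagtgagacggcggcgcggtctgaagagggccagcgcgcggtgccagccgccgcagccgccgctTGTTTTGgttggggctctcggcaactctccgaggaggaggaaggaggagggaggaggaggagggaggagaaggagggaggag
Irs2 promoter: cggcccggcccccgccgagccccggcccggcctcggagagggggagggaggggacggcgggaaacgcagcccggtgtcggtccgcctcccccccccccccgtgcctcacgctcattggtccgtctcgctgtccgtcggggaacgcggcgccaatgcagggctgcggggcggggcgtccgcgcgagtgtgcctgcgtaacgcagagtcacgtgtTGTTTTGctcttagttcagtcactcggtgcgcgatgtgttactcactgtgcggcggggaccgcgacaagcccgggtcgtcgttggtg
Igf1r promoter: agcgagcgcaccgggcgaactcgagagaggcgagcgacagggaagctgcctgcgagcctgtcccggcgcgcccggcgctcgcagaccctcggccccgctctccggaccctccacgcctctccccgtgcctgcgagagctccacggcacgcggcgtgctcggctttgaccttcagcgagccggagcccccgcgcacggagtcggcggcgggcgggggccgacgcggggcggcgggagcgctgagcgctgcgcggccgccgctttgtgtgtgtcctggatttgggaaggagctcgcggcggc
The matches in Irs1 start 111 and 32 bases before the start site, and the match in Irs2 starts 37 bases before it. In Igf1r there is no match in this window. Promoters were matched for 8 of the 10 genes, 12 promoters in all (Insr and Slc2a4 were not matched). CAAAACA, searched on both strands, is in 2 of these 12 (those of Irs1 and Irs2, and 0 of the 4 of Akt2) and in 2064 of the 32851 promoters of the table (6.28%). The forkhead consensus GTAAACA, also searched on both strands, is in 1199 of them (3.65%) and in 0 of the 12. A match is a description of the letters and shows no binding.

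Normalized counts of Irs1 were 8459 and 7943 in vehicle, 6527 and 4689 with SR-3420, 6648, 6005 and 6148 with triacsin C, 3901.5, 3001 and 2793 with triacsin C and SR-3420, 7649, 6806 and 7165 with etomoxir, and 5262, 3699 and 4619.9 with etomoxir and SR-3420. In each of the 3 settings the samples with SR-3420 lay below those without it. Irs1 fell by 0.98 with SR-3420 in the presence of triacsin C (SE 0.161, adjusted p = 4.29e-04), to 0.507 times the level with triacsin C alone. With etomoxir it fell by 0.67 (SE 0.16, adjusted p = 0.00817). Without an inhibitor the log2FC of -0.53 did not pass the test (SE 0.196, adjusted p = 0.122). Neither inhibitor alone gave a call for this docking protein (log2FC -0.37 with triacsin C, adjusted p = 0.227; -0.19 with etomoxir, adjusted p = 1.00).

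Normalized counts of Irs2 were 4682 and 2995 in vehicle, 7926 and 4403 with SR-3420, 5724, 6112 and 4773 with triacsin C, 3752.5, 2916 and 1893 with triacsin C and SR-3420, 5059.8, 4569 and 2562 with etomoxir, and 5972, 2938 and 3301 with etomoxir and SR-3420. Irs2 had the largest SE of the 10 genes in every comparison, and only with triacsin C were the samples with and without SR-3420 apart. There it fell by 0.98 (SE 0.348, adjusted p = 0.0406). That call was lost without triacsin C replicate 1 (adjusted p = 0.0874), 2 (0.11) or 3 (0.0546), and without replicate 2 (0.0939) or 3 (0.146) of triacsin C with SR-3420. Without an inhibitor the log2FC was 0.70 (SE 0.424, adjusted p = 0.372) and with etomoxir 0.00 (SE 0.344).

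Pik3r1 encodes the main regulatory subunit of class I phosphoinositide 3-kinase (RefSeq NM_001077495; mm9 chromosome 13 from 102450716 to 102538172, minus strand, 16 exons). Normalized counts of Pik3r1 were 3503.5 and 3867 in vehicle, 2155 and 2105 with SR-3420, 2029, 1659 and 1865 with triacsin C, 1561, 1465 and 1791 with triacsin C and SR-3420, 2886, 3002 and 3835 with etomoxir, and 1957, 1985 and 2318.5 with etomoxir and SR-3420. Vehicle and etomoxir alone held the 5 highest samples, and the next highest was at 2318.5, with etomoxir and SR-3420. Pik3r1 fell by 0.77 with SR-3420 against vehicle (SE 0.163, adjusted p = 0.0119), by 0.63 with SR-3420 in the presence of etomoxir (SE 0.133, adjusted p = 0.00413) and by 0.97 with triacsin C alone (SE 0.147, adjusted p = 6.66e-04). SR-3420 added to triacsin C gave a log2FC of -0.22 (adjusted p = 0.204). The call against vehicle was lost without vehicle replicate 3 (adjusted p = 0.0994) and without SR-3420 replicate 1 (0.085) or 3 (0.0717), each of which left a lone sample in its group that is assumed to vary like the others.

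Akt2 encodes the AKT kinase best known for insulin-stimulated glucose uptake in adipocytes (RefSeq NM_001110208; mm9 chromosome 7 from 28376579 to 28424472, plus strand, 14 exons). Normalized counts of Akt2 were 2962 and 2091.5 in vehicle, 2332 and 2002 with SR-3420, 2028, 2283 and 1974 with triacsin C, 1444, 1457 and 1209.5 with triacsin C and SR-3420, 2390.0, 2328 and 1651.5 with etomoxir, and 1822, 1431 and 1592 with etomoxir and SR-3420. The 3 samples with triacsin C and SR-3420 were all below the 3 with triacsin C alone. Akt2 fell by 0.64 in that comparison (SE 0.173, adjusted p = 0.0113). With etomoxir the log2FC for SR-3420 was -0.39 (SE 0.172, adjusted p = 0.114), and it passed the test when etomoxir replicate 3 was left out (log2FC -0.55, adjusted p = 0.0234). Without etomoxir replicate 1 it was -0.29 (adjusted p = 0.308).

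Foxo1 and Foxo3 encode forkhead transcription factors that AKT phosphorylates. Foxo1 (RefSeq NM_019739) spans 52072259 to 52154031 of mm9 chromosome 3 (plus strand, 3 exons), and Foxo3 (NM_019740) spans 41905592 to 41996548 of chromosome 10 (minus strand, 4 exons). Normalized counts of Foxo1 were 1093.5 and 1215 in vehicle, 932 and 946 with SR-3420, 689, 728 and 745 with triacsin C, 709, 709 and 715 with triacsin C and SR-3420, 914, 869 and 1288.5 with etomoxir, and 967, 768 and 1201 with etomoxir and SR-3420. The 6 samples with triacsin C were below the 10 others. Foxo1 fell by 0.66 with triacsin C alone (SE 0.178, adjusted p = 0.0282). That call rests on all 5 samples: it was lost without vehicle replicate 2 (adjusted p = 0.0825) or 3 (0.2) and without triacsin C replicate 1 (0.0877), 2 (0.0734) or 3 (0.0681). The log2FC of Foxo1 for SR-3420 was -0.28 without an inhibitor, -0.04 with triacsin C and -0.06 with etomoxir, and none of the 3 passed the test.

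Normalized counts of Foxo3 ranged from 645 to 1657 over the 16 samples, and the quasi-likelihood test on the 6 groups called it in 0 of the 8 comparisons. Its group means were lowest with triacsin C, at 717 ± 52.5 (SD, n = 3), and highest with SR-3420, at 1396 ± 369 (SD, n = 2). Its log2FC for SR-3420 was 0.43 without an inhibitor (SE 0.315), 0.26 with triacsin C (SE 0.259) and 0.29 with etomoxir (SE 0.257). With triacsin C alone it was -0.52 (SE 0.286, adjusted p = 0.301).

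Slc2a4 encodes the insulin-responsive glucose transporter GLUT4 (RefSeq NM_009204; mm9 chromosome 11 from 69755788 to 69761692, minus strand, 11 exons). Normalized counts of Slc2a4 were 2283 and 1629 in vehicle, 1597 and 1438 with SR-3420, 1195 to 1439 with triacsin C, 834 to 1001 with triacsin C and SR-3420, 1232 to 1375 with etomoxir, and 717 to 1040.3 with etomoxir and SR-3420. Slc2a4 fell by 0.58 with SR-3420 in the presence of triacsin C (SE 0.162, adjusted p = 0.0134) and by 0.49 in the presence of etomoxir (SE 0.161, adjusted p = 0.0400), with no overlap between samples in either. The first of these calls was lost without triacsin C replicate 2 (adjusted p = 0.0571) or replicate 1 of triacsin C with SR-3420 (0.0524). The other was lost without etomoxir replicate 1 (0.109) or 2 (0.0957) or replicate 2 of etomoxir with SR-3420 (0.168). Every sample with an inhibitor alone lay below both vehicle samples. The log2FC was -0.55 with triacsin C (SE 0.178, adjusted p = 0.0627) and -0.59 with etomoxir (SE 0.178, adjusted p = 1.00), and the value for triacsin C passed without vehicle replicate 3 (log2FC -0.78, adjusted p = 0.0379), while without vehicle replicate 2 it was -0.28 (adjusted p = 0.435).

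Sesn3 encodes sestrin 3, a stress-responsive regulator of mTORC1 and a known FOXO target (RefSeq NM_030261; mm9 chromosome 9 from 14080745 to 14130578, plus strand, 10 exons). Normalized counts of Sesn3 were 484 and 449 in vehicle, 238 and 242 with SR-3420, 221, 263 and 222 with triacsin C, 266.5, 229 and 188 with triacsin C and SR-3420, 353, 387 and 400.5 with etomoxir, and 264, 198 and 278 with etomoxir and SR-3420. As with Pik3r1, the 5 samples of vehicle and etomoxir alone were above all others. Sesn3 fell by 0.94 with SR-3420 against vehicle (SE 0.188, adjusted p = 0.00876), by 0.62 with SR-3420 in the presence of etomoxir (SE 0.153, adjusted p = 0.0100) and by 0.96 with triacsin C alone (SE 0.169, adjusted p = 0.00201). SR-3420 added to triacsin C gave a log2FC of -0.07 (adjusted p = 0.759). The call against vehicle was lost without vehicle replicate 2 (adjusted p = 0.0704) and without SR-3420 replicate 1 (0.0755) or 3 (0.0514). The call with etomoxir was lost without replicate 2 of etomoxir with SR-3420 (0.0508).

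Levels were compared between genes as normalized counts per kb of counted length. In vehicle the order of the means was Irs2 (997 ± 310, SD, n = 2), Irs1 (895 ± 39.8), Akt2 (799 ± 195), Slc2a4 (693 ± 164), Pik3r1 (533 ± 37.1), Insr (444 ± 6.47), Foxo3 (361 ± 85.8), Sesn3 (216 ± 11.7), Foxo1 (208 ± 15.4) and Igf1r (93.6 ± 8.66). By counted length the docking protein genes thus had the highest means and the IGF1 receptor gene the lowest. The order rests on that length. For Igf1r it is 11978 bp, against 4181 bp for the longest coding transcript of the annotation, and for Foxo3 2889 against 6848 bp. Neighbours in this order from Irs2 down to Pik3r1 do not differ beyond the spread of the replicates, nor do Insr and Foxo3, or Sesn3 and Foxo1.

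SR-3420 against vehicle asked what lipolysis does without an inhibitor, and it lowered Pik3r1 and Sesn3, 2 of the 10 genes, against 7.54% of all 12786 genes (607 higher and 357 lower). The vehicle samples are replicates 2 and 3 and the SR-3420 samples replicates 1 and 3. Treatment and replicate number are therefore partly mixed in this comparison. With the replicate number as a model term 3 of the 10 were lower, with Irs1 added, beside 19.1% of all genes called. Fitted on the vehicle and SR-3420 samples alone neither Pik3r1 nor Sesn3 was called (log2FC -0.81, adjusted p = 0.197 for Pik3r1 and log2FC -0.97, adjusted p = 0.176 for Sesn3), and of all genes 46 were, against 964. The median log2FC of the 10 genes was -0.32, and that of all genes -0.00377. With triacsin C present, SR-3420 lowered Irs1, Irs2, Akt2 and Slc2a4 and raised Igf1r, so 5 of 10 were called where 36.9% of all genes were. That share is near the background, and the median log2FC was -0.15 against 0.02 for all genes. With etomoxir present it lowered Insr, Irs1, Pik3r1, Slc2a4 and Sesn3, again 5 of 10, where 25.3% of all genes were called and 12.8% were lower. On the samples of these 2 groups alone 0 of the 5 were called, and of all genes 1205, against 3234. The log2FC values there were -0.77 for Insr (adjusted p = 0.0544), -0.68 for Irs1 (0.0578), -0.65 for Pik3r1 (0.0605), -0.51 for Slc2a4 (0.126) and -0.64 for Sesn3 (0.0775). In the fit on all 6 groups the median log2FC of the 10 genes was -0.44, against 0.01 for all genes. The comparisons with the inhibitors have 3 samples on each side and the comparison with vehicle has 2, so their counts are not set against each other.

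Triacsin C against vehicle gave 5 lower genes of the 10, Insr, Igf1r, Pik3r1, Foxo1 and Sesn3, where 11.7% of all genes were called and 6.94% were lower. With the replicate number as a model term 8 of the 10 were lower, beside 24% of all genes called. Without that term the median log2FC of the 10 genes was -0.60, against 0.07 for all genes. Etomoxir against vehicle gave calls for 0 of the 10 genes with edgeR's quasi-likelihood test and 0 with DESeq2. At an unadjusted p under 0.05 there was 1, Slc2a4. Over all genes that comparison called 3, or 0.0235%, with 283 at an unadjusted p under 0.05 and 17 called by DESeq2. SR-3420, triacsin C and etomoxir are compared with the same 2 vehicle samples, and the triacsin C samples serve both in triacsin C against vehicle and as the control of SR-3420 with triacsin C. A high or low value in a shared sample moves both of its comparisons.

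**Figure D2:**
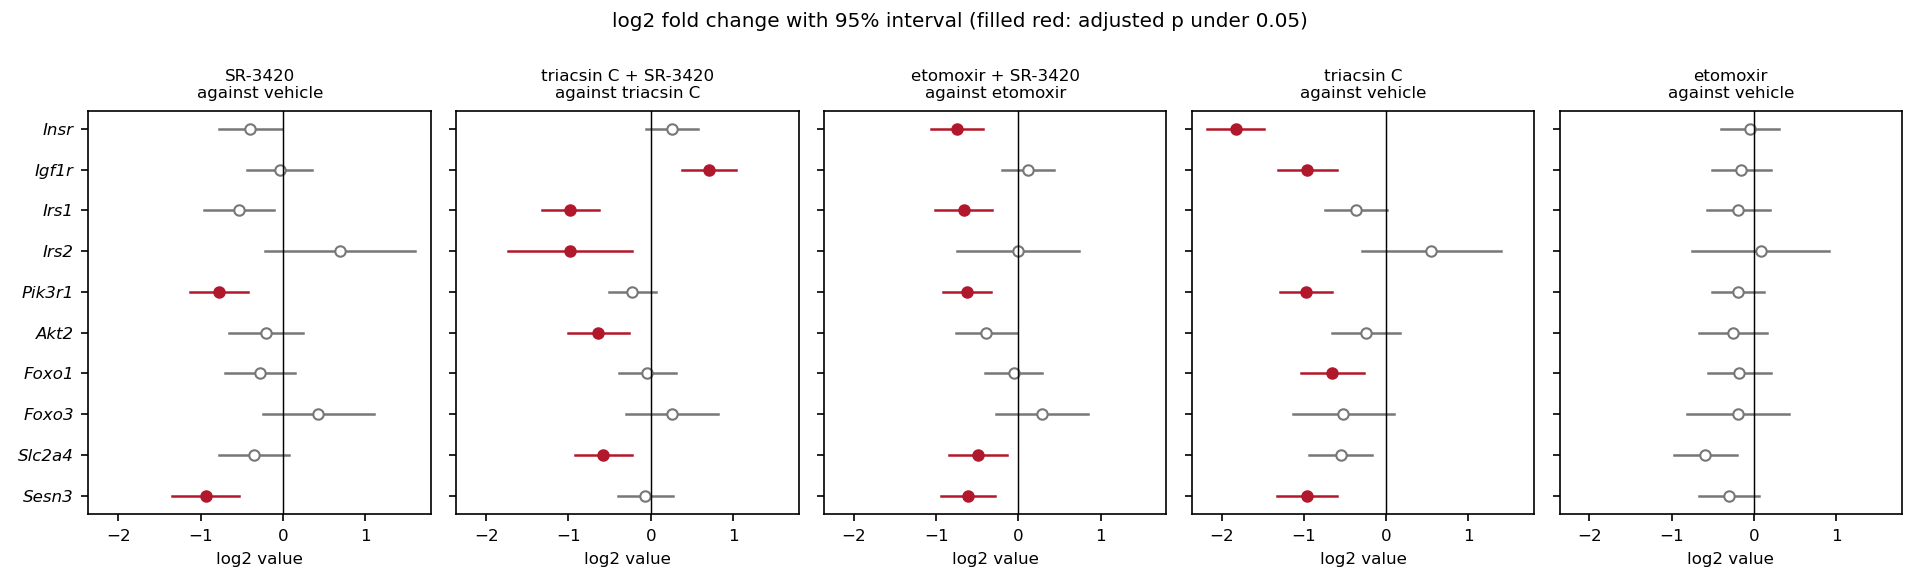
Log2 fold change (x axis) of the 10 genes (y axis) in 5 comparisons, with bars for the 95% interval; filled red points have an adjusted p under 0.05. The interval of Insr for triacsin C against vehicle runs from -2.17 to -1.48, and no point is filled for etomoxir against vehicle.

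Whether the responses to SR-3420 differed was tested as the difference between their log2FC values. The differences against no inhibitor use the vehicle and SR-3420 groups, which share only replicate number 3. Between triacsin C and etomoxir, Insr was called (difference 1.01, SE 0.206, adjusted p = 0.0216, 95% interval 0.57 to 1.46), 1 of 10 where 2.29% of all genes were called. The call was lost without triacsin C replicate 1 (adjusted p = 0.0501), 2 (0.0549) or 3 (0.0701) and without replicate 1 of triacsin C with SR-3420 (0.0622). Between triacsin C and no inhibitor, edgeR's quasi-likelihood test called 0 of 10 (2.51% of all genes), while 5 had an unadjusted p under 0.05 and DESeq2 called 2, Igf1r (adjusted p = 0.0298) and Sesn3 (adjusted p = 0.0126). Of all genes, 2130 had an unadjusted p under 0.05 there and DESeq2 called 812. With the replicate number as a model term, 5 of the 10 were called there (Insr, Igf1r, Irs2, Pik3r1 and Sesn3), beside 13.1% of all genes. That term also brought the calls between triacsin C and etomoxir to 3 of 10 (Insr, Igf1r and Irs2), beside 8.25% of all genes. Without it, the differences between triacsin C and no inhibitor in the quasi-likelihood test were 0.87 for Sesn3 (SE 0.244, adjusted p = 0.0800), 0.75 for Igf1r (SE 0.236, adjusted p = 0.119) and 0.66 for Insr (SE 0.23, adjusted p = 0.158). For Irs2 the difference was -1.68 (SE 0.549, adjusted p = 0.132), with a 95% interval from -2.86 to -0.50. Between etomoxir and no inhibitor the quasi-likelihood test called 0 of the 10 genes and 0% of all genes, with 0 of the 10 and 307 of all genes at an unadjusted p under 0.05. DESeq2 called 0 of the 10 and 7 of all genes there. The intervals of the differences for etomoxir are wide, from -0.85 to 0.14 for Insr and from -1.87 to 0.48 for Irs2, so that like responses are not shown.

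**Figure D3:**
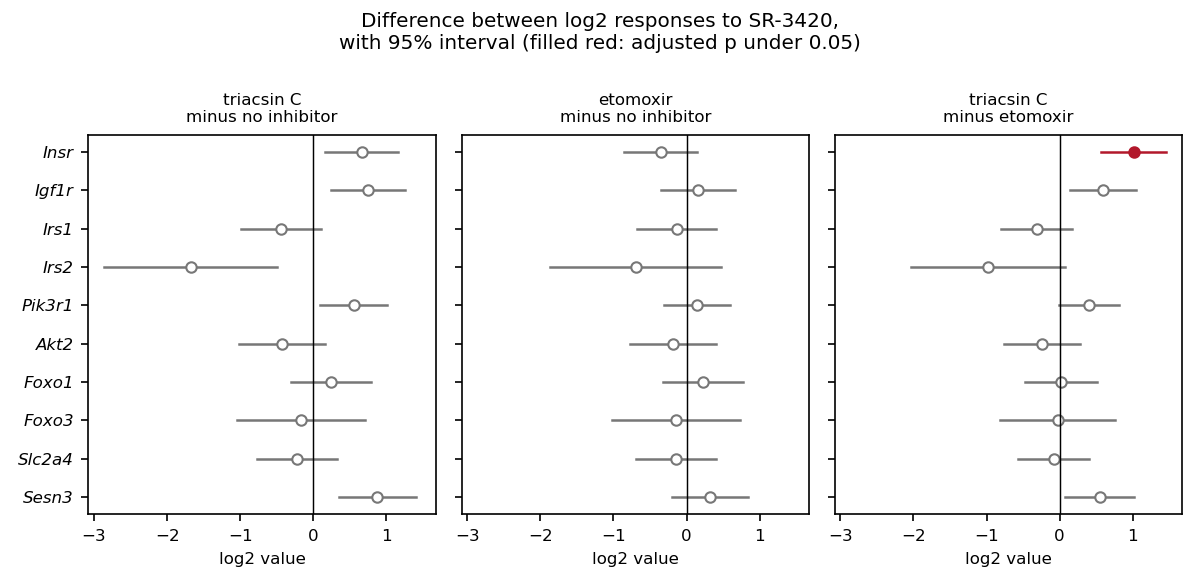
Difference between log2 responses to SR-3420 (x axis) for the 10 genes (y axis), with bars for the 95% interval; filled red points have an adjusted p under 0.05. Only Insr is filled, at 1.01 for triacsin C minus etomoxir.

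The other genes of the pathway were taken from 6 lists of 91 genes, of which 86 were tested. The lists were also chosen with earlier results of these data known. SR-3420 against vehicle raised 8 and lowered 5 of these, SR-3420 with triacsin C raised 21 and lowered 14, SR-3420 with etomoxir raised 14 and lowered 15, and triacsin C against vehicle raised 7 and lowered 14. Of all genes, 7.54%, 36.9%, 25.3% and 11.7% were called in these comparisons. Etomoxir against vehicle called 0 with the quasi-likelihood test, with 6 at an unadjusted p under 0.05 and 1 called by DESeq2. Of all 12786 genes, these counts were 3 (0.0235%), 283 and 17. The median log2FC of the 86 genes lay between -0.12 (triacsin C against vehicle) and 0.07 (SR-3420 with triacsin C). In the list paragraphs that follow, values are given only for genes that met the naming rule and whose call held when any 1 sample was left out. This restriction was made after the values were seen. The flagged results near the end include list genes whose calls did not hold.

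Of 9 tested receptors, ligands and binding proteins, SR-3420 raised 3 and lowered 1 with triacsin C (36.9% of all genes called) and raised 3 and lowered 2 with etomoxir (25.3%). Igf2r, the receptor that clears IGF2, rose by 0.77 with SR-3420 and triacsin C (SE 0.166, adjusted p = 0.00273). Igfbp6 and Igfbp4 encode secreted proteins that bind IGFs. Igfbp6 rose by 0.70 with triacsin C and by 0.93 with etomoxir (SE 0.165 in each, adjusted p = 0.00483 and 0.00137), while Igfbp4 fell by 1.21 and by 1.09 (SE 0.215 in each, adjusted p = 7.51e-04 and 0.00262). SR-3420 against vehicle called 0 of the 9 with the quasi-likelihood test (4 at an unadjusted p under 0.05, 2 by DESeq2), and triacsin C against vehicle also called 0 (1 at an unadjusted p under 0.05, 0 by DESeq2). Of all 12786 genes, 2788 had an unadjusted p under 0.05 for SR-3420 against vehicle and 3103 for triacsin C, and DESeq2 called 1584 and 1979.

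Of 15 tested adaptors and inhibitors near the receptor, SR-3420 raised 3 and lowered 1 with each inhibitor (36.9% of all genes called with triacsin C, 25.3% with etomoxir), and triacsin C alone lowered 2 (11.7%). Grb10, an adaptor that inhibits the insulin receptor, rose by 0.85 with SR-3420 and triacsin C (SE 0.145, adjusted p = 5.22e-04). Gab1, a docking adaptor, fell by 1.12 with triacsin C alone (SE 0.188, adjusted p = 0.00146). SR-3420 against vehicle called 0 of the 15 (1 at an unadjusted p under 0.05, 1 by DESeq2, against 2788 and 1584 of all 12786 genes). Of 10 other subunits of phosphoinositide 3-kinase and phosphatases of its product, SR-3420 lowered 3 with triacsin C and 2 with etomoxir, and triacsin C alone lowered 2, beside the same shares of all genes. Inpp5k, one of the phosphatases, fell by 0.74 with SR-3420 and etomoxir (SE 0.167, adjusted p = 0.00579). SR-3420 against vehicle called 0 of the 10 (4 at an unadjusted p under 0.05, 2 by DESeq2), beside the same counts of all genes.

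Of 15 genes of the AKT arm, SR-3420 raised 2 without an inhibitor (7.54% of all genes called), raised 7 and lowered 1 with triacsin C (36.9%), and raised 2 with etomoxir (25.3%), while triacsin C alone raised 1 and lowered 4 (11.7%). Sgk1, a kinase related to AKT, rose by 1.86 with SR-3420 and triacsin C (SE 0.281, adjusted p = 2.26e-04) and by 2.17 with SR-3420 and etomoxir (SE 0.284, adjusted p = 1.65e-04). Tbc1d1 and Tbc1d4 encode RAB GTPase-activating proteins that hold back GLUT4 vesicles until AKT phosphorylates them. Tbc1d1 rose by 1.26 with SR-3420 and triacsin C (SE 0.136, adjusted p = 2.06e-05) and by 0.75 with SR-3420 and etomoxir (SE 0.134, adjusted p = 0.00142). Tbc1d4 fell by 1.27 with triacsin C alone (SE 0.18, adjusted p = 4.18e-04). Trib1, a pseudokinase, moved both ways: it rose by 0.87 with triacsin C alone (SE 0.132, adjusted p = 6.65e-04) and fell by 0.88 when SR-3420 was added (SE 0.116, adjusted p = 8.35e-05).

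Of 16 genes of the mTOR complexes and their outputs, SR-3420 raised 1 and lowered 1 without an inhibitor (7.54% of all genes called), raised 4 and lowered 1 with triacsin C (36.9%), and raised 1 and lowered 1 with etomoxir (25.3%), while triacsin C alone lowered 4 (11.7%). Sesn1, a relative of Sesn3, fell with SR-3420 by 1.17 without an inhibitor (SE 0.167, adjusted p = 0.00104), by 0.93 with triacsin C (SE 0.137, adjusted p = 1.90e-04) and by 0.97 with etomoxir (SE 0.135, adjusted p = 2.45e-04). Fitted on the vehicle and SR-3420 samples alone, the first of these had an adjusted p of 0.111. Sesn2, the other sestrin gene, rose by 0.84 with SR-3420 and etomoxir (SE 0.206, adjusted p = 0.00935; 0.0712 when fitted on these groups alone). Mapkap1, a subunit of mTORC2, rose by 0.80 with SR-3420 and triacsin C (SE 0.123, adjusted p = 2.54e-04). Deptor, an inhibitor of mTOR, fell by 1.59 with triacsin C alone (SE 0.276, adjusted p = 0.00186).

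Of 21 tested FOXO factors and textbook FOXO targets, SR-3420 raised 5 and lowered 4 without an inhibitor, raised 4 and lowered 7 with triacsin C, and raised 5 and lowered 9 with etomoxir, while triacsin C alone raised 6 and lowered 2. Of all genes, 7.54%, 36.9%, 25.3% and 11.7% were called in these 4 comparisons, and the median log2FC of the 21 genes lay between -0.28 and 0.03. Pdk4, which encodes pyruvate dehydrogenase kinase 4, rose with SR-3420 by 2.255 without an inhibitor (SE 0.21, adjusted p = 4.28e-05), by 1.19 with triacsin C (SE 0.166, adjusted p = 1.24e-04) and by 1.61 with etomoxir (SE 0.167, adjusted p = 3.05e-05), and by 1.16 with triacsin C alone (SE 0.19, adjusted p = 0.00125). Fbxo32, a ubiquitin ligase gene of muscle atrophy, fell by 1.195 with SR-3420 alone (SE 0.204, adjusted p = 0.00323; 0.152 when fitted on these groups alone), by 1.53 with SR-3420 and etomoxir (SE 0.168, adjusted p = 4.37e-05) and by 1.2 with triacsin C alone (SE 0.183, adjusted p = 7.08e-04). Gadd45a, a growth arrest gene, rose by 1.46 with triacsin C alone (SE 0.218, adjusted p = 6.10e-04), by 0.75 with SR-3420 and triacsin C (SE 0.185, adjusted p = 0.00631) and by 1.23 with SR-3420 and etomoxir (SE 0.188, adjusted p = 4.52e-04). Cat, the catalase gene, fell by 1.52 with SR-3420 and triacsin C (SE 0.175, adjusted p = 3.32e-05). Pnpla2, which encodes ATGL itself, fell by 1.35 in the same comparison (SE 0.309, adjusted p = 0.00407). Klf15, a transcription factor of fasting metabolism, fell by 1.39 with SR-3420 and etomoxir (SE 0.272, adjusted p = 0.00250).

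**Figure D4:**
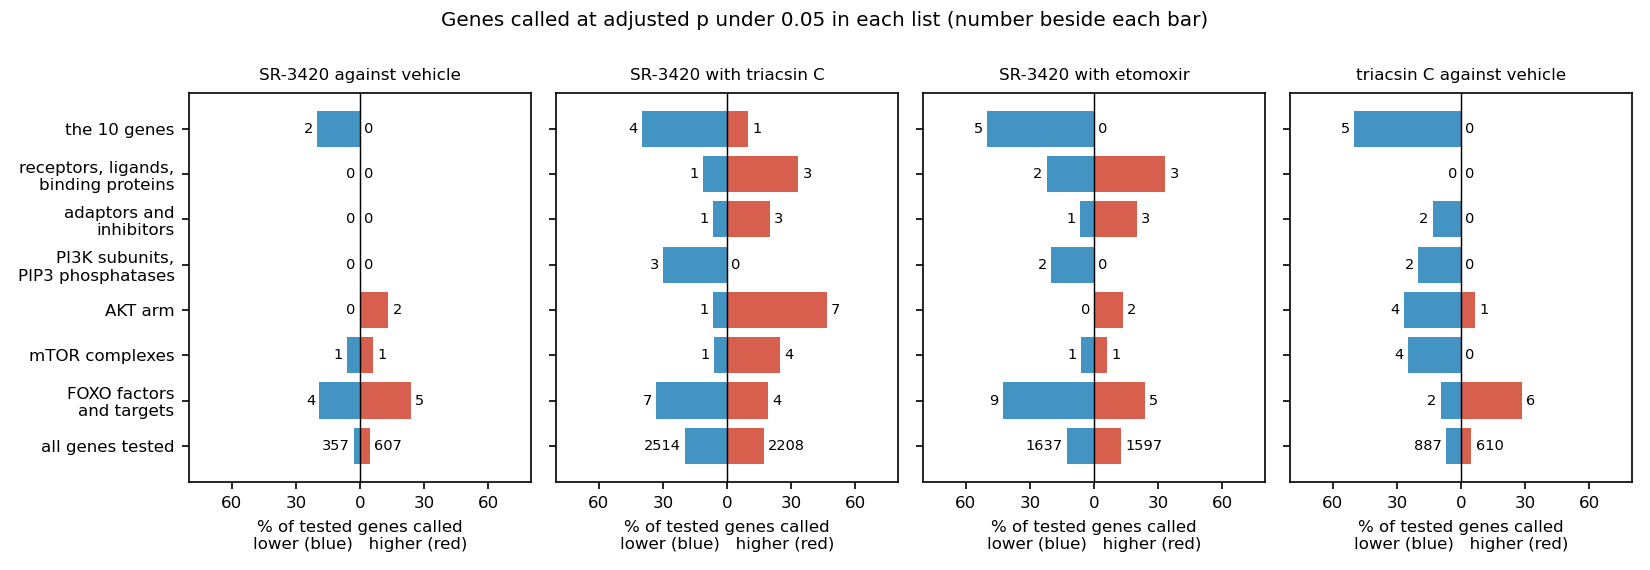
Share of tested genes (x axis, %) called lower (blue, left) and higher (red, right) in the 10 genes, in each of the 6 lists and in all genes tested (y axis), for 4 comparisons; numbers beside the bars are counts. With triacsin C against vehicle, 5 of the 10 genes are lower and 0 higher, and the FOXO list has 6 higher and 2 lower.

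Marker lists also differed between groups. The summed normalized counts of the 8 adipocyte markers were 306759 and 285848 in vehicle, 236920 and 206588 with SR-3420, 290455, 312518 and 301134 with triacsin C, 128421, 124819 and 131670 with triacsin C and SR-3420, 294702, 275471 and 320520 with etomoxir, and 171763, 118050 and 209403 with etomoxir and SR-3420. The sums were lower with SR-3420 in each setting, while triacsin C alone stayed within the range of vehicle and etomoxir. Without Fabp4, replicates 1 and 3 of triacsin C, at 174117 and 174677, lay below every vehicle and etomoxir sample (lowest 184146). Of the 8, SR-3420 lowered 1 without an inhibitor, 7 with triacsin C and 6 with etomoxir, and triacsin C alone lowered 1, where 2.79%, 19.7%, 12.8% and 6.94% of all genes were lower. The sum of the brown adipocyte markers was 4183 and 3442.5 in vehicle, 3471 and 3269 with SR-3420, 2953.5, 3918 and 3580.5 with triacsin C, 1865, 2091 and 2025 with triacsin C and SR-3420, 3479.5, 3709 and 3802 with etomoxir, and 2483, 2414 and 3614 with etomoxir and SR-3420. Cox8b was the most abundant of them. Without Cox8b the sums were 2282 and 2063 in vehicle, 2650 and 2438 with SR-3420, 1228, 1494 and 1305 with triacsin C, 1386, 1474.5 and 1474.5 with triacsin C and SR-3420, 2113, 2159 and 2658 with etomoxir, and 1946, 1871 and 2997 with etomoxir and SR-3420. Of the 8 tested, SR-3420 lowered 1 without an inhibitor, raised 2 and lowered 3 with triacsin C and lowered 1 with etomoxir, and triacsin C alone lowered 3, beside these shares and 17.3% of all genes raised with triacsin C present.

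With triacsin C alone, 3 brown adipocyte markers were called: Prdm16 fell by 2.14 (SE 0.286, adjusted p = 2.55e-04), Ebf2 fell by 1.13 (SE 0.321, adjusted p = 0.0360) and Ppargc1a fell by 1.04 (SE 0.262, adjusted p = 0.0196). The other 5 of the 8 tested had positive log2FC values without a call (Elovl3 0.73, Cox7a1 0.67, Ucp1 0.59, Cox8b 0.41 and Cidea 0.32). The median log2FC of the 8 was 0.362. The call of Prdm16 held with each sample left out. That of Ebf2 was lost without vehicle replicate 2 (adjusted p = 0.0655) or 3 (0.287) or triacsin C replicate 1 (0.077), 2 (0.122) or 3 (0.0813). That of Ppargc1a was lost without vehicle replicate 2 (0.084) or 3 (0.114) or triacsin C replicate 1 (0.0735) or 2 (0.0678). These markers were named after their values were seen. The sum of the 8 preadipocyte or fibroblast markers, led by Col1a1, was 26128 and 22831 in vehicle, 55838 and 40401 with SR-3420, 27431 to 35834 with triacsin C, 41914 to 64441 with triacsin C and SR-3420, 15696 to 31423 with etomoxir and 32607 to 66776 with etomoxir and SR-3420. SR-3420 raised 3 of these with triacsin C and 5 with etomoxir, where 17.3% and 12.5% of all genes were higher. The part of these markers in the results for the 10 genes was not tested.

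Markers of other cells were low. Of 5 leukocyte markers 2 were tested, Ptprc had a count of 0 in 3 samples and Emr1 in 7, and their sum, led by Cd68, ranged from 60.4 to 251. Cd68 was at 56.3 ± 15.98 normalized counts in vehicle (SD, n = 2) and at 212 ± 11.5 with triacsin C (SD, n = 3). It rose by 1.92 with triacsin C alone (SE 0.269, adjusted p = 3.66e-04) and fell by 1.29 when SR-3420 was added to triacsin C (SE 0.225, adjusted p = 6.51e-04), and both calls held with each sample left out. Of 3 endothelial markers Kdr alone was tested, with Pecam1 at 0 in 2 samples and Cdh5 at 0 in 3, and their sum ranged from 11.7 to 45.8. Kdr rose by 0.96 with SR-3420 and triacsin C (SE 0.306, adjusted p = 0.0247) and by 1.28 with SR-3420 and etomoxir (SE 0.298, adjusted p = 0.00681). The first of these calls was lost without triacsin C replicate 1 (adjusted p = 0.0859) or 2 (0.106) and without replicate 1 (0.0555) or 2 (0.056) of triacsin C with SR-3420. Of 4 skeletal muscle markers 2 were tested, Ckm had a count of 0 in 6 samples and Myog in 3, and the sum, led by Acta1, ranged from 37.6 to 171. The part of these markers in the results was not tested.

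**Figure D5:**
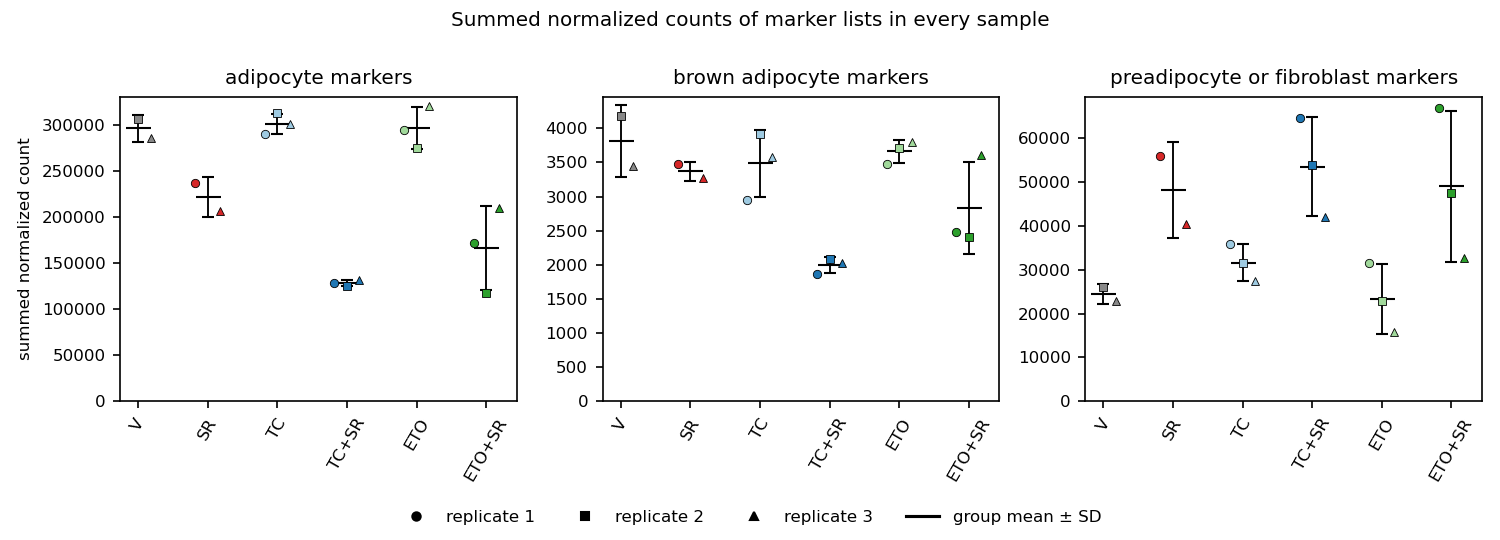
Summed normalized counts (y axis, from 0) of the adipocyte, brown adipocyte and preadipocyte or fibroblast markers in the 6 groups (x axis; V vehicle, SR SR-3420, TC triacsin C, ETO etomoxir); points are samples, their shapes the replicate numbers, and bars the group mean with its SD. The adipocyte sums with triacsin C and SR-3420 lie between 124819 and 131670, below all other samples except replicate 2 of etomoxir with SR-3420 at 118050.

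The genes whose pattern over the 16 samples was most like that of Insr, among 10694 genes ranked by Pearson's r of log2 CPM, were Slc22a23 (r = 0.985, Spearman's rho 0.932), the kinase gene Sik2 (r = 0.984, rho 0.982) and the DNA methyltransferase gene Dnmt3a (r = 0.984, rho 0.979). For Irs1 they were Rad51d (r = 0.964, rho 0.982), the hypoxia-inducible factor gene Epas1 (r = 0.962, rho 0.971) and A530016L24Rik (r = 0.961, rho 0.962). These values describe samples that share groups and libraries, and they carry no test.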

How the data were processed

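The authors aligned the reads to mm9 with STAR 2.4.2a, removed further reads of the same position and length with HOMER, and deposited unnormalized iRNA-seq counts per gene. The methods do not state whether counting used the strand, nor whether intronic reads enter the counts. No member overlaps another gene of the count table.

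From these counts, log2 fold changes (log2FC) were estimated by edgeR 4.0.16 under R 4.3.3 (TMM, filterByExpr, a mean for each of the 6 groups over 16 samples, quasi-likelihood test). Benjamini-Hochberg adjustment ran over 12786 genes, and an adjusted p under 0.05 was called. Standard errors come from the log2FC and the F statistic, and 95% intervals from the t distribution. Normalized counts use size factors of DESeq2 1.42.0. The method was tried on simulated counts, and no outcome of that trial is given here. Totals per sample ran from 9452861 to 25670624, and no replicates held identical values (chi-square per degree of freedom 4.53 to 165).

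Alternatives were DESeq2's size factors, its Wald test, no filter, at least 10 counts in every sample, the compared groups alone, the replicate number as a model term, a log2FC of at least 1, and leaving out each sample. The members and lists were chosen with earlier results of these data known. Named list genes are at most 2 in each direction, list and comparison with the largest log2FC among those called, with groups that do not overlap and a mean normalized count of at least 50. Plots were made in Python 3.11.15 (matplotlib 3.10.9).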

Additional observations from a re-analysis of the deposited data

Results flagged for a closer look

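Differences between responses to SR-3420 that passed the quasi-likelihood test of edgeR after Benjamini-Hochberg adjustment are given here as values. Genes other than Insr come from the 6 pathway lists and were chosen after their values were seen. Between triacsin C and etomoxir, the difference was 1.01 for Insr (standard error, SE, 0.206, adjusted p = 0.0216), whose call was lost without triacsin C replicate 1 (adjusted p = 0.0501), 2 (0.0549) or 3 (0.0701) or replicate 1 of triacsin C with SR-3420 (0.0622). For Fbxo32 the difference was 1.24 (SE 0.238, adjusted p = 0.0146): this ubiquitin ligase gene fell by 1.53 with etomoxir, and its log2FC with triacsin C was -0.28. For Mapkap1, which encodes an mTORC2 subunit, it was 1.03 (SE 0.172, adjusted p = 0.0079). For Trib1, a pseudokinase gene, it was -0.85 (SE 0.163, adjusted p = 0.0144), and the call was lost without triacsin C replicate 2 (adjusted p = 0.0511).

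Between triacsin C and no inhibitor, the difference was 0.82 for Mapkap1 (SE 0.192, adjusted p = 0.0412), -1.07 for Pdk4 (SE 0.259, adjusted p = 0.0486), -0.999 for Sod2 (SE 0.224, adjusted p = 0.0355) and -0.94 for Trib1 (SE 0.182, adjusted p = 0.0166). Pdk4 encodes pyruvate dehydrogenase kinase 4 and Sod2 the mitochondrial superoxide dismutase. Each of these calls was lost without the filter on low counts. That of Pdk4 was also lost with DESeq2's size factors, and those of Mapkap1 and Sod2 on the compared groups alone. Pdk4 lost its call without any 1 of the 10 samples compared, and over all alternatives its adjusted p reached 0.248. Mapkap1 lost it without any of them except replicate 2 of triacsin C with SR-3420 (highest adjusted p over all alternatives 0.125), and Sod2 without any except SR-3420 replicate 3 (highest 0.206). Trib1 lost it without vehicle replicate 3, SR-3420 replicate 1 or 3, or triacsin C replicate 2 (highest 0.118).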

How the results depend on the processing

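Of 1060 alternative values of the 80 log2 values of the 10 genes, 1009 kept their side of the threshold, 33 were no longer called and 18 became called. The sign changed in 46 alternative values, of 19 values that were not called, such as Igf1r for SR-3420 against vehicle (-0.169 to 0.0804), and in 0 of called values. Of 737 alternative values of the named list genes, chosen after seeing the data, 609 kept their call, 128 lost it and 0 changed direction.

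Among the 10 genes, SR-3420 against vehicle called 2, but 0 when fitted on the compared groups alone, 0 with a log2FC of at least 1 as well, and 0 to 1 with each sample left out. SR-3420 with triacsin C called 5, but 0 with a log2FC of at least 1 and 3 to 4 with each sample left out. SR-3420 with etomoxir called 5, but 0 on its groups alone (adjusted p 0.0544 for Insr, 0.0578 for Irs1, 0.0605 for Pik3r1, 0.126 for Slc2a4 and 0.0775 for Sesn3), 0 with a log2FC of at least 1 and 3 to 6 with each sample left out. Triacsin C against vehicle called 5, but 1 with a log2FC of at least 1, and 4 to 5 with each sample left out. DESeq2 and no filter on low counts each called 6 there, with Slc2a4 added (adjusted p 0.0247 and 0.0438). On the groups alone, Pik3r1 and Sesn3 had adjusted p-values of 0.197 and 0.176 for SR-3420 against vehicle. The response difference between triacsin C and no inhibitor called 0, against 2 with DESeq2, and that between triacsin C and etomoxir called 1, against 0 to 1 with each sample left out.

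Over all genes, SR-3420 against vehicle called 964, against 1584 with DESeq2, 46 on its groups alone and 306 to 504 with each sample left out. SR-3420 with triacsin C called 4722, against 5603 on its groups alone and 3506 to 4056 with each sample left out. SR-3420 with etomoxir called 3234, against 1205 on its groups alone and 1989 to 3198 with each sample left out. No count over all genes is given for a log2FC of at least 1. Triacsin C against vehicle called 1497, against 702 to 1089 with each sample left out. Etomoxir against vehicle called 3, against 17 with DESeq2, 2 with at least 10 counts in every sample, 0 on its groups alone and 0 to 3 with each sample left out. The response differences called 321, 0 and 293 (triacsin C and none, etomoxir and none, triacsin C and etomoxir), against 812, 7 and 656 with DESeq2. Without a filter the first called 163, and with each sample left out 53 to 179, while the last called 145 to 262. Median log2FC over all genes shifted by over 0.1 only with total counts as the scaling (-0.104 for SR-3420 against vehicle).

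Same-numbered samples correlated at over 0.1 in their deviations from the group means in 27 of 35 pairs (mean 0.386, lowest -0.275, against a mean of -0.191 in 71 pairs with other numbers). Deviations in a group sum to 0, so the mean for other numbers is pulled below 0 when same-numbered pairs correlate. It is not an independent comparison. The labels do not say what a number stands for and 8 pairs did not pass 0.1, so the main fit left the numbers out. The spread in the main fit then includes any difference between replicate numbers. Whether the fit with the numbers is the better one was not tested. Each of these 8 pairs involves triacsin C replicate 1 or replicate 2 of etomoxir with SR-3420. Of the 16 samples 11 correlated best with a sample of their own number, and 5 did not (vehicle 2, triacsin C 1 and 2, and replicate 2 of SR-3420 with each inhibitor). With the replicate number as a block, the 8 comparisons called 3, 5, 6, 8, 0, 5, 0 and 3 of the 10 genes and 2438, 7185, 5776, 3072, 6, 1669, 3 and 1055 of all genes, in the order SR-3420 against vehicle, with triacsin C and with etomoxir, triacsin C and etomoxir against vehicle, and the response differences. None of the 10 genes lost a call with the block. Irs1 gained one for SR-3420 (adjusted p 0.00258), Akt2 for SR-3420 with etomoxir (0.0226), and Irs1, Foxo3 and Slc2a4 for triacsin C (0.0098, 0.0149 and 0.0286). For the difference between triacsin C and none, Insr, Igf1r, Irs2, Pik3r1 and Sesn3 gained one (0.0372, 0.00442, 0.00462, 0.0357 and 0.0302), and for triacsin C and etomoxir, Igf1r and Irs2 (0.0104 and 0.016).

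The cause of these changes was not tested. Leaving out a sample of vehicle or SR-3420 leaves 1 in its group, assumed to vary like the other groups. The lowest count of the 10 genes was 147, and counting error was not separated from the spread of the samples. The 2 samples a group limit the comparisons with vehicle, and the vehicle and SR-3420 groups share only replicate number 3.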
